A study of Arabidopsis thaliana with 12 samples.

Results

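The 4 replicate 1 libraries of a 12-library poly(A) RNA-seq experiment in Arabidopsis thaliana seedlings were compared with the 8 libraries of replicates 2 and 3, within each genotype and over all gene rows. The members were taken from the column names: 4 columns end in rep1 and 8 in rep2 or rep3, and each replicate number has its own 1-letter prefix (a, b and c). The 4 genotypes, all of ecotype Columbia, were wild type (WT), brat1 (the T-DNA allele brat1-1 of BRAT1, a bromodomain and ATPase protein that counteracts gene silencing), nrpe1 (allele nrpe1-11, in the largest subunit of RNA polymerase V, which acts in RNA-directed DNA methylation) and the double mutant brat1nrpe1. Each genotype had 3 libraries, 1 of each replicate number. All plants were 10-day-old seedlings grown on Murashige and Skoog plates in long days (16 h of light, then 8 h without). The labels give 23 °C for the whole day, while the methods of the study give 23 °C in the light and a lower temperature in the dark. Whole seedlings were used, so fewer cells of a type and less RNA per cell cannot be told apart. The hour of sampling, and the dates of harvest, extraction and sequencing of each replicate, are not given in the sources used here.

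The table held 34133 rows, of which 7776 were at 0 in every library, and 22237 rows with a mean FPKM (fragments per kilobase of transcript, scaled to the mapped fragments of the library) of at least 0.1 were tested. For each gene the difference was the log2(FPKM + 0.1) of replicate 1 minus the mean of replicates 2 and 3 of the same genotype, averaged over the 4 genotypes. A gene was called higher or lower in replicate 1 at an adjusted p under 0.05 (limma, Benjamini-Hochberg over all genes tested) and a difference over 1. The replicate 1 set has no replicate of its own, so the test asks only whether a difference was alike in 4 genotypes. Nothing in the sources used here says whether the replicates were separate cultures, so the spread between libraries may be technical. The relative depth, read from the size of the smallest steps in low rows and set to 1 in WT replicate 2, was 2.57 to 2.87 in the replicate 1 libraries and 1.14 to 1.37 in the other 7. The part of depth in the differences was not tested. BRAT1 stood at 11.0, 3.44, 10.8 and 3.11 FPKM in WT, brat1, nrpe1 and brat1nrpe1 of replicate 1, and NRPE1 at 5.01, 5.72, 1.42 and 1.1 FPKM, so each mutated gene was lower in the libraries labelled as its mutants. Neither gene was called between the replicate numbers.

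The plant circadian clock is a network of transcription factors that repress each other in turn through the day. CCA1 and LHY are expressed around dawn, the pseudo-response regulators PRR9, PRR7, PRR5 and TOC1 follow in that order from morning to evening, and GI, FKF1, LUX, ELF3 and ELF4 act from late day into the night. CCA1 and LHY bind the evening element in promoters of evening genes and repress them. Many cold-response genes are under clock control as well, among them the CBF activators and their COR targets, which carry the CRT/DRE element that CBF proteins bind. The G-box is bound by bZIP and bHLH factors, several of which act in light signalling.

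The promoters below are shown to let the clock and cold genes be read beside the letters of these elements. They were chosen after the values and the motif matches were seen, and in that choice promoters with few or none of the letters were passed over, so they are examples and no measure of how often the letters occur. The window of GI, a clock gene that was higher, holds none of them, that of COR28 holds 1 CCA1-binding site and that of COR15B holds 1 CRT/DRE core. Each is the 300 bases upstream of the annotated gene start, 5′ to 3′ on the gene's strand, read from the RefSeq TAIR10.1 assembly. Capitals mark the evening element (AAAATATCT), the CCA1-binding site (AAAAATCT), the G-box (CACGTG) and the CRT/DRE core (CCGAC), each on either strand. The first 3 genes were higher in replicate 1, CCA1 and LHY were lower, and COR15A, a cold-induced chloroplast protein gene, was higher.
PRR5 (chr5:8358547-8358846, minus strand): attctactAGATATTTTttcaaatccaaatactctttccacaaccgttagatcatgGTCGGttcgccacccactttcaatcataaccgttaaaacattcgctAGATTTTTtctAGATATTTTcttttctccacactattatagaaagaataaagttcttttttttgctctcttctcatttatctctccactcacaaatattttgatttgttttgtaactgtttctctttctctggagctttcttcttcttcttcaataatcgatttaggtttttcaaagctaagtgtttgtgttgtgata
FKF1 (chr1:25508339-25508638, plus strand): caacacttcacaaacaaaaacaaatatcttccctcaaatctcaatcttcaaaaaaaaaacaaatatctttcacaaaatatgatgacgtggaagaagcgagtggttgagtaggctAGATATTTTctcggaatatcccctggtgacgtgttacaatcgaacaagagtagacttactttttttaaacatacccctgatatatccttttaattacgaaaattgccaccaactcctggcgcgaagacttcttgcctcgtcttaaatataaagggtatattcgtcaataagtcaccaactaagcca
TOC1 (chr5:24674663-24674962, plus strand): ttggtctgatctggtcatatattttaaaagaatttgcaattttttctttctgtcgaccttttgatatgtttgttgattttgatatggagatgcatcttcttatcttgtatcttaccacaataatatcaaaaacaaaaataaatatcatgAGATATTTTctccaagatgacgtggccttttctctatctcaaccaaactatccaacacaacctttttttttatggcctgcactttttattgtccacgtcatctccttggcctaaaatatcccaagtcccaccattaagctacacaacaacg
CCA1 (chr2:19245291-19245590, plus strand): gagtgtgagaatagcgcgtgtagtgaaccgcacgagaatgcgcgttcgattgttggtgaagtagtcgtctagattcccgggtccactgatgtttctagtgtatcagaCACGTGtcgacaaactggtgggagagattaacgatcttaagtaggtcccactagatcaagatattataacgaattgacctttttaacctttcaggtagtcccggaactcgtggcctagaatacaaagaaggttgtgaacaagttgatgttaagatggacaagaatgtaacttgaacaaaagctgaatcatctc
LHY (chr1:37872-38171, minus strand): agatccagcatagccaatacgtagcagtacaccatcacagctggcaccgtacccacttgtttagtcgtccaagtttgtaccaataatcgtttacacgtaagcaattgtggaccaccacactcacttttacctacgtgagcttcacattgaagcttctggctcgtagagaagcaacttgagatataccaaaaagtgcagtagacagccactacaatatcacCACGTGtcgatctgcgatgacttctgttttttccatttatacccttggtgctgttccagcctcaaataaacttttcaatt
COR15A (chr2:17712331-17712630, minus strand): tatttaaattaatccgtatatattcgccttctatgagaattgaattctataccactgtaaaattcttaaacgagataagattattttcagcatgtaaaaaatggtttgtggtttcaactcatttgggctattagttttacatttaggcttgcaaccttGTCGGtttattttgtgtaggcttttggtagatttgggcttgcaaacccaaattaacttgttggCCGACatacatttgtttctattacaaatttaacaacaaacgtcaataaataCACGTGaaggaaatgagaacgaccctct
PRR5 holds 2 evening elements, a CCA1-binding site and a CRT/DRE core, FKF1 and TOC1 hold 1 evening element each, CCA1 and LHY hold a G-box each, and COR15A holds 2 CRT/DRE cores and a G-box. A match of letters is a description of the window and not a binding site.

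Replicate 1 differed from replicates 2 and 3 across much of the transcriptome. Of 22237 genes tested, 1581 were higher in replicate 1 (7.11%) and 1213 were lower (5.45%), 2794 in either direction (12.6%). The same fit of replicate 2 against replicate 3 called 0 genes (0%), with 992 genes (4.46%) at an unadjusted p under 0.05 in limma against 15358 (69.1%) for replicate 1. The median size of the difference was 0.36 on the log2 scale for replicate 1 and 0.047 between replicates 2 and 3. Among the called genes 465 were higher by over 2 and 161 lower by over 2, and 84 were higher by over 4 against 9 lower. In 2762 of the 2794 called genes the differences of all 4 genotypes had one sign, a consistency that the test itself favours. Without a test, replicate 1 lay above both other libraries of the same genotype in all 4 genotypes for 7034 genes (31.6%) and below both for 6723 genes (30.2%). In the 12 libraries the first principal component carried 58.0% of the variance and set the replicate 1 libraries (79.9 to 83.2) apart from the other 8 (-45.1 to -36.1). Genotype held 19.0% of the sum of squares, replicate 1 against the others 58.0%, and replicate 2 against replicate 3 3.99%.

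The evening genes of the clock were higher in replicate 1. Of 10 evening clock genes tested, 9 were higher and 0 lower, with a median difference of 3.68 on the log2 scale against 0.019 over all genes tested. The counts of this list and of all lists below are to be read against the shares over all genes tested, 7.11% higher and 5.45% lower. TOC1, the last pseudo-response regulator of the day, stood at 95.5, 91, 68.9 and 74.7 FPKM in WT, brat1, nrpe1 and brat1nrpe1 of replicate 1 and at 6.78 to 9.18 FPKM (median 8.29) in the other 8 libraries. The libraries of the 2 sets did not overlap, and the difference was 3.30 ± 0.12 (SE, n = 4 genotypes, limma adjusted p = 3.3e-06).

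PRR5, an afternoon repressor of CCA1 and LHY, stood at 76.1, 71.4, 64.7 and 72.9 FPKM in replicate 1 and at 0.396 to 0.792 FPKM (median 0.586) in the others, a difference of 6.70 ± 0.085 (limma adjusted p = 4.5e-07). FKF1, a blue-light receptor that targets repressors of flowering for degradation, stood at 61.5, 54.5, 51.0 and 51.7 FPKM in replicate 1. In the other 8 libraries FKF1 was between 0 and 0.156 FPKM, with brat1 replicate 2 listed at 0, and the difference was 8.13 ± 0.17 (limma adjusted p = 7.6e-07). This was the highest difference of the 10 evening genes. GI, a partner of FKF1, stood at 72.9, 72.8, 70.7 and 72.2 FPKM against 6.05 to 7.10 FPKM (median 6.72), with a difference of 3.42 ± 0.046.

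LUX, ELF4 and ELF3 form the evening complex, a repressor of PRR9 and of growth genes. LUX stood at 91, 86.5, 70.2 and 73.2 FPKM in replicate 1 and at 4.19 to 6.62 FPKM (median 5.31) in the others. Of the LUX exon bases, 21.5% overlap another gene model. ELF4 stood at 115, 95.9, 89.4 and 91.2 FPKM against 2.08 to 4.51 FPKM (median 3.64). Their differences were 3.94 ± 0.14 and 4.82 ± 0.19, and ELF3 was higher by 2.46. PRR3, a relative of TOC1, differed by 5.49 and BOA, a relative of LUX, by 2.84. CHE, a repressor of CCA1, was the 1 evening gene not called, with a difference of 0.25.

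The dawn genes were lower in replicate 1. Of 12 morning clock genes tested, 8 were lower, 2 higher and 2 not called, with a median difference of -1.56. LHY stood at 0.971, 1.42, 0.986 and 1.39 FPKM in WT, brat1, nrpe1 and brat1nrpe1 of replicate 1 and at 59.8 to 76.6 FPKM (median 66.3) in the others. Its mean was 56.7 times higher in replicates 2 and 3, and the difference was -5.73 ± 0.075 (limma adjusted p = 4.5e-07). CCA1 stood at 3.81, 3.35, 4.27 and 3.81 FPKM against 62.5 to 81.1 FPKM (median 78.2), a difference of -4.26 ± 0.083. RVE8, a dawn-phased activator of evening genes, stood at 1.52, 2.31, 1.99 and 1.6 FPKM against 36.0 to 42.8 FPKM (median 38.6). None of these 3 genes had overlapping libraries. RVE8 differed by -4.34, and its relative RVE4 by -1.13. LNK1 and LNK2, coactivators of RVE8, differed by -1.02 and -2.79, and RVE1, a link from the clock to auxin, by -2.89.

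Of the pseudo-response regulators, PRR9 was lower in replicate 1 and PRR7, PRR5 and TOC1 were higher. PRR9, known to peak earliest, stood at 1.71, 1.98, 3.20 and 2.50 FPKM in replicate 1 against 7.22 to 12.6 FPKM (median 9.72), a difference of -2.0 ± 0.25. Of the PRR9 transcript, 44.4% also occurs almost unchanged at another locus, so its FPKM is uncertain. PRR7 stood at 67.5, 65.5, 70.4 and 64.9 FPKM against 26.1 to 28.3 FPKM (median 26.5), a difference of 1.32 ± 0.033, and PRR5 and TOC1 were higher as given above. RVE6 was higher by 1.08. RVE2 and RVE7 were not called, at 0.81 and -0.74.

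**Figure D1:**
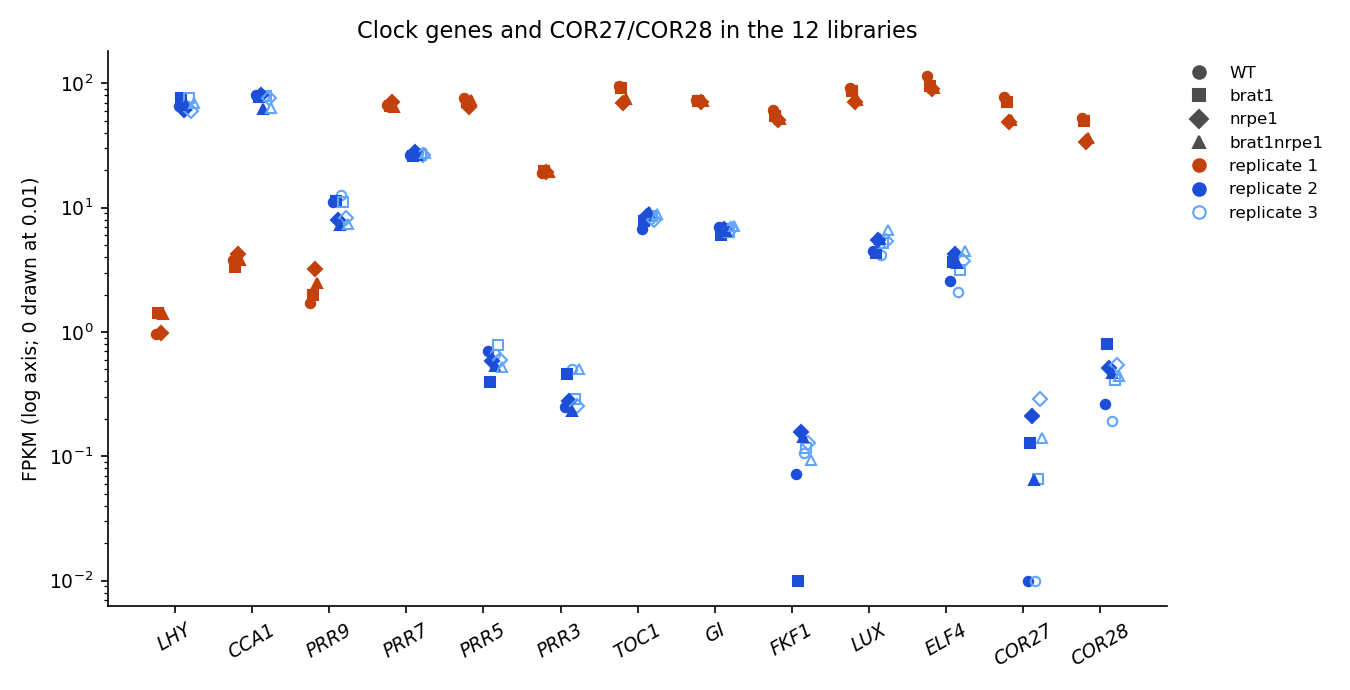
FPKM (log axis) of 11 clock genes and of COR27 and COR28 in each of the 12 libraries, with the symbol giving the genotype, orange points for replicate 1, and filled and open blue points for replicates 2 and 3. LHY, CCA1 and PRR9 lie lower in replicate 1 and the other genes lie higher, without overlap, from PRR7 at 64.9 to 70.4 against 26.1 to 28.3 FPKM to COR27 at 48.6 to 77.8 against 0 to 0.287 FPKM.

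Genes known as outputs of the clock were called in both directions, 6 higher and 5 lower of 14 tested. COR27 and COR28, cold- and light-regulated repressors that feed back on the clock, were among the genes that differed most. COR27 stood at 77.8, 70.5, 48.6 and 50.9 FPKM in replicate 1 and at 0 to 0.287 FPKM (median 0.0970) in the others, where it was listed at 0 in both WT libraries. COR28 stood at 52.9, 49.9, 33.9 and 36.1 FPKM against 0.193 to 0.800 FPKM (median 0.455). Their differences were 8.31 ± 0.37 and 6.33 ± 0.25. Within replicate 1 both genes had their lower values in nrpe1 and brat1nrpe1, as had TOC1 and LUX, a pattern that was not tested. GRP7, an RNA-binding protein that regulates its own transcript, was higher by 3.55 and its relative GRP8 by 1.64. The catalase genes differed in opposite directions, CAT3 by 2.05 and CAT2 by -1.82. CO, the activator of flowering in long days, was higher by 1.41, while its relatives COL2 and COL1 differed by -3.85 and -2.62 and the CO repressors CDF1 and CDF2 by -1.44 and -2.32. COL2 stood at 4.41, 4.12, 4.75 and 4.5 FPKM against 51.2 to 80.3 FPKM (median 66.9), and 29.5% of its exon bases overlap another gene model.

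The letters of the evening element were found in more of the promoters of genes higher in replicate 1. Of 21384 promoters of tested protein-coding genes, 2.91% held the evening element on either strand, against 9.57% of the 1431 higher and 1.72% of the 1162 lower. It was in 19.9% of the 136 promoters of genes higher by over 3. Of the evening clock promoters 5 of 10 held it, and 1 of 12 of the morning clock. The G-box was in 8.02% of all promoters, 9.64% of the 1431 higher and 10.5% of the 1162 lower. It was in 7 of the 28 promoters of genes lower by over 3 (25.0%) and in 14.0% of those higher by over 3. Of the morning clock promoters 6 of 12 held it. The CRT/DRE core was in 14.7% of all promoters and in 7 of the 17 of the cold and dehydration list. The CCA1-binding site was in 7.98% of all promoters, 9.08% of the higher and 8.26% of the lower. These shares are descriptions and were not tested.

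**Figure D2:**
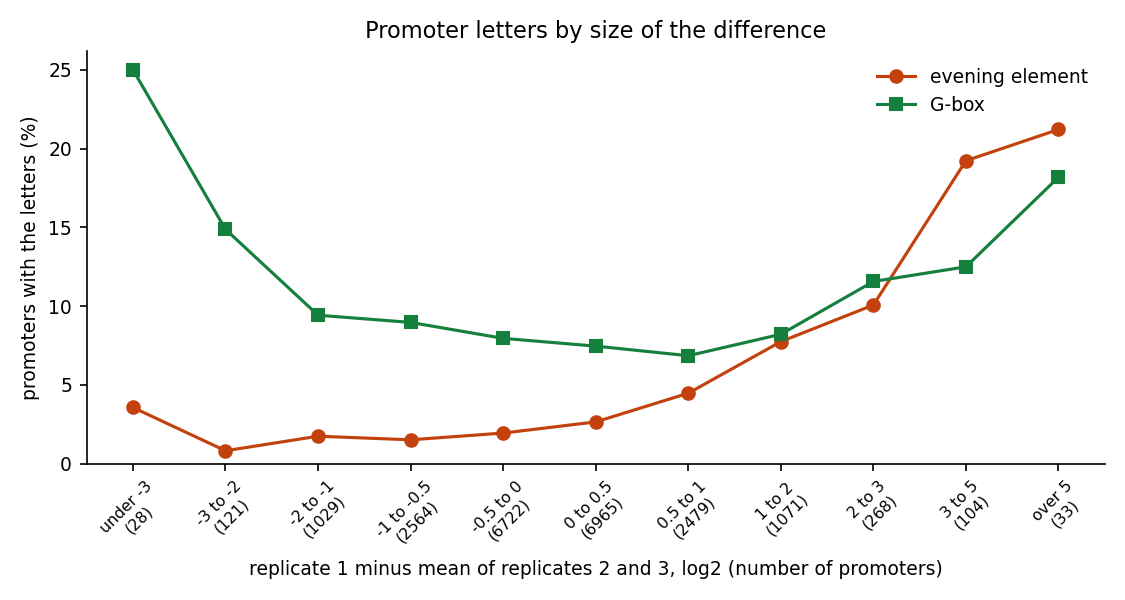
Share of promoters (300 bases upstream, %) that hold the evening element (orange) or the G-box (green), by the mean log2 difference of the gene between replicate 1 and replicates 2 and 3, with the number of promoters in brackets. The evening element runs from 1.95% of promoters at differences between -0.5 and 0 to 21.2% above 5, and the G-box is at 25.0% below -3 and 18% above 5.

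Cold and dehydration genes were higher in replicate 1. Of 17 tested, 15 were higher and 0 lower, with a median difference of 2.53. The CBF factors, which switch on the COR genes within hours of cold, differed by 4.65 (CBF1), 2.66 (CBF2) and 4.44 (CBF3). COR15A stood at 869, 802, 629 and 573 FPKM in WT, brat1, nrpe1 and brat1nrpe1 of replicate 1 and at 15.5 to 22.5 FPKM (median 19.0) in the others. Its mean was 37.9 times higher in replicate 1, and the difference was 5.23 ± 0.089 (limma adjusted p = 5.3e-07). COR15B, its neighbour on chromosome 2, stood at 446, 504, 402 and 369 FPKM against 3.53 to 5.61 FPKM (median 3.70), a difference of 6.70 ± 0.10. Of the COR15B exon bases, 29.5% overlap another gene model. The libraries of the 2 sets did not overlap for either gene.

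The other cold genes covered a wide range of levels. COR413PM1, a membrane protein, stood at 1092 to 1123 FPKM in replicate 1 and 191 to 235 FPKM in the others, and COR6.6 differed by 2.53. RD29A and RD29B, which respond to drought and abscisic acid, were higher by 3.54 and 4.07, and the dehydrin genes RAB18, LTI30, ERD10 and COR47 by 2.3, 2.0, 1.61 and 1.54. GOLS3, a galactinol synthase, was higher by 3.05 and KIN1 by 1.25. P5CS1, which makes proline, and RD22 were not called, at 0.67 and 0.26. Only 1 of the 17 promoters held the evening element.

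Light-signalling genes were lower or not called. Of 22 tested, 7 were lower and 0 higher, with a median difference of -0.48. ELIP2, an early light-induced protein of the thylakoid, stood at 0.923, 1.05, 0.581 and 1.54 FPKM in replicate 1 and at 16.1 to 33.8 FPKM (median 25.3) in the others, a difference of -4.49 ± 0.097 (limma adjusted p = 8.3e-07). Its relative ELIP1 differed by -2.20. HYH, a bZIP factor of photomorphogenesis, stood at 3.82, 4.0, 3.07 and 3.50 FPKM against 34.6 to 45.7 FPKM (median 37.4), a difference of -3.41 ± 0.060. The libraries of ELIP2 and HYH did not overlap. HY5, the partner of HYH, differed by -1.16, SIG5, a plastid sigma factor, by -1.85, and the shade-response genes HB-2 and PIL1 by -1.74 and -1.15.

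Of 38 tested genes of the photosystems and light-harvesting antennae, 2 were higher, 3 lower and 33 not called, with a median of 0.23. These shares were near those over all genes tested, 7.11% higher and 5.45% lower. LHCB4.3, an antenna protein of photosystem II, stood at 10, 9.63, 7.39 and 8.56 FPKM against 58.6 to 75.5 FPKM (median 62.6), a difference of -2.85 ± 0.10. LHCB2.1 and PSBQ1 differed by -1.08 and -1.03, PSAG by 1.22 and LHCB1.4 by 1.77. The list's summed FPKM was 127129 to 135472 in replicate 1 and 133482 to 138627 in the others, ranges that overlap. These sums include LHCB1.3, which was not tested and was listed at 0 in replicate 1 and at 15416 to 16453 FPKM in the others. That 0 may be a failed estimate, and without this row the sums of the others would lie below those of replicate 1. Of the RuBisCO small subunit and activase genes, 3 of 5 were lower, RBCS1B by -1.98, RBCS2B by -1.64 and RCA by -1.24. RBCS1A, the most abundant small subunit gene, was at 16457 to 20245 FPKM in replicate 1 and 13224 to 14512 FPKM in the others, and the 4 small subunit genes summed to 22219 to 27475 FPKM in replicate 1 and 26049 to 28751 FPKM in the others.

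**Figure D3:**
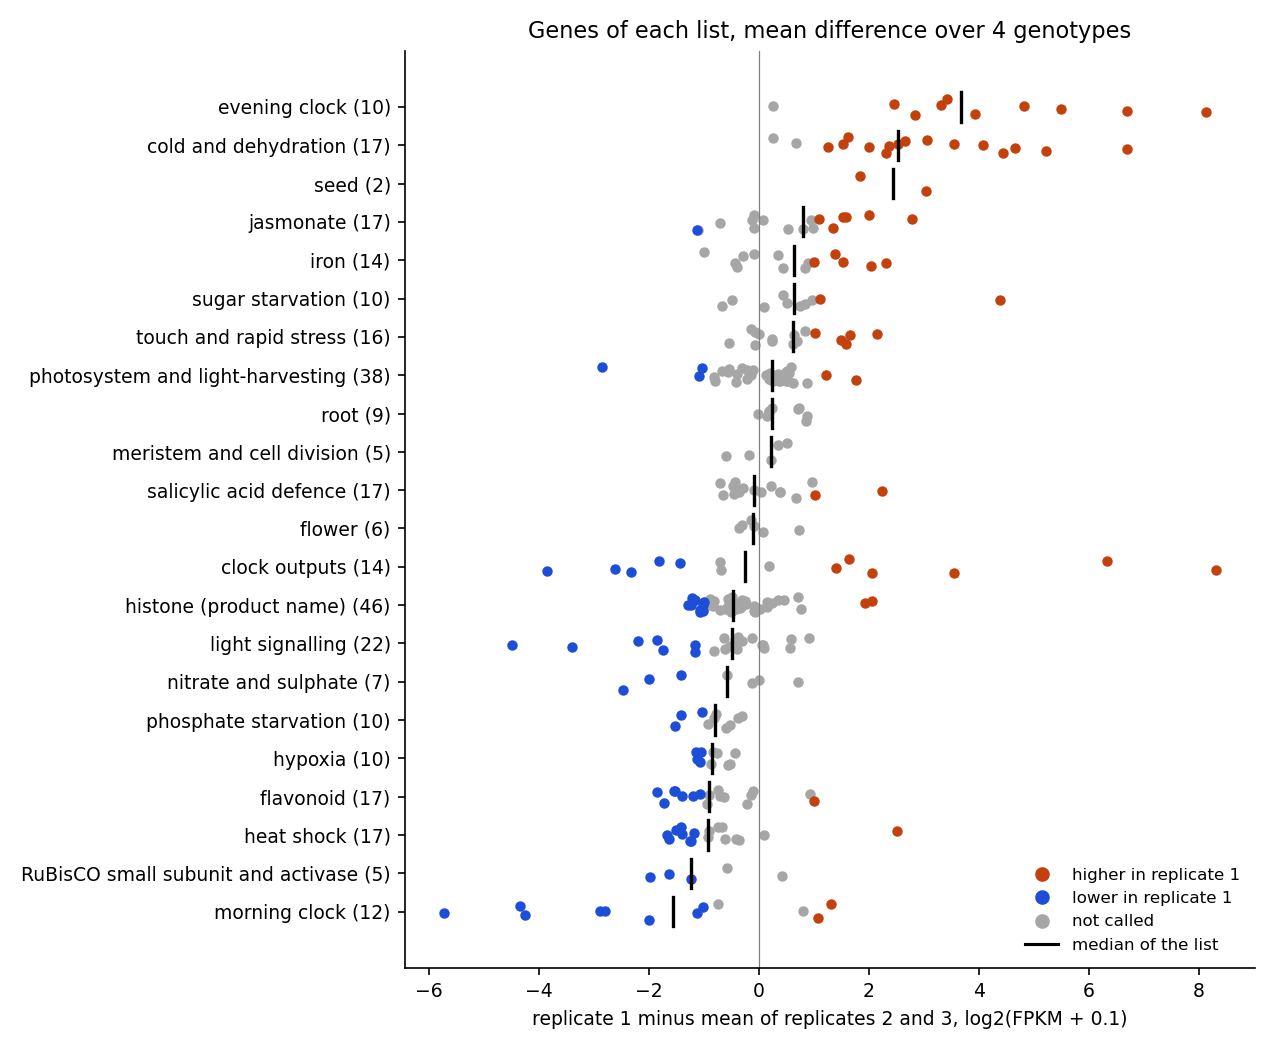
Mean difference over the 4 genotypes (log2 scale, replicate 1 minus the mean of replicates 2 and 3) of each tested gene of the lists and of the histone genes, with orange points higher, blue points lower, grey points not called and black bars at the list median. The evening clock (median 3.68) and the cold and dehydration genes (median 2.53) lie to the right and the morning clock (median -1.56) to the left.

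Stress and nutrient lists split by kind. The counts below are to be read against the shares over all genes tested, 7.11% higher and 5.45% lower. Of the heat shock genes 8 of 17 were lower, 1 was higher and 8 were not called, with a median of -0.92. HSP17.6C, a small heat shock protein, stood at 0.0544, 0.283, 0.0606 and 0.0550 FPKM in replicate 1 against 0.138 to 0.861 FPKM (median 0.656), so the libraries overlapped, and the difference was -1.67. HSP70-4 differed by -1.64, HSP90.1 by -1.40 and the heat shock factor HSFA2 by -1.26. DREB2A, a factor of both heat and drought responses, was the 1 higher gene, at 9.22, 7.96, 6.78 and 7.45 FPKM against 1.05 to 1.61 FPKM (median 1.33), a difference of 2.51 ± 0.11.

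Of the touch and rapid-stress genes 5 of 16 were higher and 0 lower. ERF6, an ethylene-response factor, stood at 24.3, 18.9, 12.7 and 16.3 FPKM in replicate 1 and at 3.06 to 5.42 FPKM in the others, and ERF104 differed by 1.66. TCH4 and WRKY33 had their higher values in WT and brat1 of replicate 1, with 148 and 121 FPKM for TCH4 against 43.2 and 51.6 FPKM in nrpe1 and brat1nrpe1. Of the jasmonate genes 6 of 17 were higher and 1 lower. VSP2, a storage protein induced by jasmonate, stood at 175, 165, 96.7 and 147 FPKM against 16.8 to 24.9 FPKM (median 20.7), a difference of 2.78 ± 0.21, and VSP1 differed by 2.0. Of the salicylic acid defence genes 2 of 17 were higher, a share near that over all genes. NIMIN1 differed by 2.24 and CBP60G by 1.02, and the CBP60G differences ranged from -0.05 in nrpe1 to 1.70 in WT. The CBP60G call was lost without the WT, brat1 or brat1nrpe1 libraries, at 0.79, 0.85 and 1.06.

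Among nutrient responses, to be read against the same 7.11% and 5.45%, iron-deficiency genes were higher in 5 of 14 cases. BHLH100, a factor of the iron response, stood at 34.2, 37.0, 42.8 and 32.7 FPKM against 5.31 to 16.4 FPKM (median 5.72), a difference of 2.3 ± 0.20. IRT1, the root iron transporter, differed by 2.04 ± 0.47, with genotype differences from 1.12 to 4.05. Phosphate starvation genes were lower in 3 of 10 cases, MGD3 by -1.52, SPX3 by -1.42 and MGD2 by -1.03, and the SPX3 call was lost without the WT, brat1 or brat1nrpe1 libraries, at -1.12, -1.40 and -1.23. Sulphate-deficiency genes were lower in 3 of the 7 cases of the nitrate and sulphate list, SDI1 by -2.47, LSU1 by -2.0 and LSU2 by -1.41. Hypoxia genes were lower in 4 of 10 cases, with LBD41 and PCO2 at -1.14 and -1.13. Of the sugar-starvation genes 2 of 10 were higher. DRM1 stood at 864, 880, 649 and 577 FPKM against 27.1 to 51.3 FPKM (median 33.7), a difference of 4.39 ± 0.18, and TPS10 differed by 1.1. The flavonoid genes were lower in 7 of 17 cases and higher in 1. DFR and LDOX, late steps toward anthocyanin, differed by -1.85 and -1.73, and the negative regulator MYBL2 by 1.0.

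Markers of other tissues gave few calls, though the root list lay slightly higher in replicate 1. None of 9 root, 6 flower or 5 meristem and cell division genes tested was called. Over all genes tested 12.6% were called, so lists this short could give few calls in any case. Of the root genes 8 differed by above 0 and 1 by below 0, with a median of 0.23. The summed FPKM of the root list was 105 to 112 in replicate 1 and 74.6 to 84.6 in the others, without overlap. That of the meristem list was 100.7 to 114.5 and 110.9 to 125.3, with overlap. Seed storage genes were near 0. Of 9, the 2 that passed the filter (CRA1 and OLEO1) did so through replicate 1 alone, so that their call as higher was set by the filter. The list summed to 0.947 to 5.83 FPKM in replicate 1 and 0 to 0.690 in the others, and CRA1 stood at 0.974, 1.23, 0.412 and 3.71 FPKM against 0 to 0.254 FPKM. OLEO1 differed by 1.84. Ribosomal protein genes, taken by product name, were lower in 52 of 305 cases (7 higher), with a median of -0.47. Histone genes were lower in 9 of 46 cases (2 higher), with a median of -0.48. Over all genes tested 5.45% were lower and 7.11% higher.

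Several genes outside the lists were among those that differed most with no library at 0. AT2G33830, a dormancy and auxin associated gene related to DRM1, stood at 2100, 2254, 1854 and 1746 FPKM in replicate 1 against 7.84 to 28.8 FPKM (median 16.5), a difference of 6.96 ± 0.28. AT2G07080, annotated as a pseudogene with the product name uncharacterized protein, stood at 97.9, 113, 103 and 108 FPKM against 0.547 to 0.682 FPKM (median 0.577). AT1G07050 (a CCT motif protein, the motif also found in TOC1 and CO), AT1G51090 (a heavy metal transport family protein), AT1G56300 (a DnaJ-domain protein) and AT5G62360 (a pectin methylesterase inhibitor family protein) differed by 7.04, 6.98, 6.82 and 6.59. Of the AT1G56300 exon bases, 44.9% overlap another gene model. On the lower side, AT1G65490 stood at 4.0, 2.90, 4.04 and 4.04 FPKM against 102 to 203 FPKM (median 117), and AT3G12320 at 3.81, 3.35, 4.91 and 4.19 FPKM against 74.5 to 84.3 FPKM (median 77.6). Their differences were -5.09 and -4.25. The prenyltransferase gene cPT4 differed by -4.06, and GER2, a germin-like gene whose whole transcript has a near-identical copy elsewhere, by -3.98. AT4G19112, which is not matched in the annotation used, was at 0.00267 to 0.00388 FPKM against 0.0475 to 17.5 FPKM. Its replicates 2 and 3 were far apart in WT (2.51 and 17.5 FPKM), brat1 (12.5 and 0.0475) and brat1nrpe1 (14.3 and 0.275). In nrpe1 they were close, at 11.0 and 11.4 FPKM, so the size of this difference is uncertain.

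Short transcripts were called more often. Of 109 tested genes with a transcript under 300 bases, 51.4% were higher in replicate 1 and 1.83% lower, against 32.5% and 6.78% of the 295 genes from 300 up to 500 bases. The shares were 11.3% higher and 12.1% lower from 500 up to 1000 bases, 6.71% and 5.38% from 1000 up to 2000, 4.86% and 3.22% from 2000 up to 3000, and 3.04% and 1.54% at 3000 and over. Restricted to genes whose mean FPKM was at least 10, 20 of 35 genes under 300 bases were higher and 1 lower, while from 500 up to 1000 bases 106 were higher and 254 lower of 1582. Among genes with a mean of at least 0.1 FPKM in both sets, 53 of 103 under 300 bases and 74 of 252 from 300 up to 500 bases were higher. By gene type, 12 of 29 miRNA precursors, 5 of 10 snRNAs, 39 of 191 lncRNAs and 49 of 203 transcribed pseudogenes were higher, against 1431 of 21385 protein-coding genes. These counts include rows that passed the filter through 1 set alone. With a mean of at least 0.1 FPKM in both sets they were 12 of 27, 2 of 7, 37 of 184 and 43 of 183, against 1346 of 21086. By G+C content, the fifth of genes with 23.1% to 39.2% had 9.74% higher and 9.0% lower, and the fifth with 43.2% to 60.1% had 9.29% higher and 4.15% lower.

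**Figure D4:**
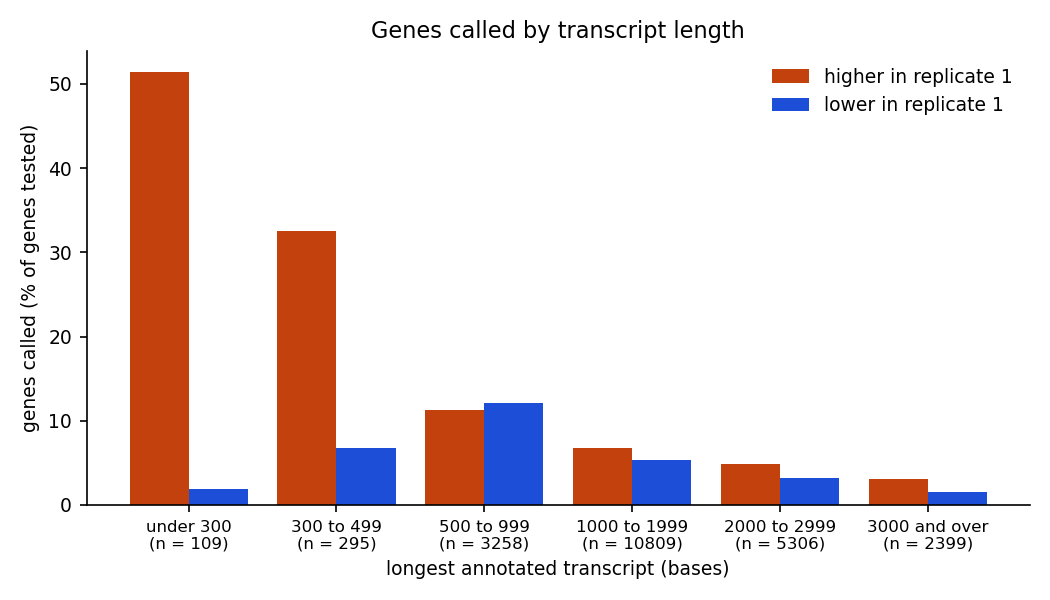
Genes called higher (orange) and lower (blue) in replicate 1 as a percent of the genes tested, by length of the longest annotated transcript, with the number tested under each class. The higher share falls from 51.4% under 300 bases to 3.04% at 3000 bases and over, and the lower share is highest, at 12.1%, from 500 up to 1000 bases.

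Rows at exactly 0 in all libraries of one set were left out of the test, 408 of the 22645 rows with a mean FPKM of at least 0.1, of which 17 were at 0 in replicate 1 and 391 in replicates 2 and 3. Cufflinks can list 0 where an estimate failed, so such a 0 is not a measured absence, and no fold is given. At a mean FPKM of at least 1 in the other set, 291 rows were at 0 throughout replicates 2 and 3 and 3 rows throughout replicate 1. Counting only rows above 0 in every library of the other set, 136 rows were at 0 in all 8 libraries of replicates 2 and 3 and above 0 in all 4 of replicate 1, and 1 row was the reverse. Of the 136, 97 had a mean of at least 10 FPKM in replicate 1 and 36 a mean of at least 100. Of the 130 with an annotated transcript, 91 were under 300 bases, and 66 were protein-coding genes, 33 snoRNAs and 12 miRNA precursors. Seen from the length side, 159 rows under 300 bases had a mean of at least 1 FPKM and no 0 in replicate 1, and 91 of these (57.2%) were at 0 in all 8 other libraries. The same was true of 7.39% of 176 rows from 300 up to 500 bases and of 0.137% of 19027 longer rows.

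The highest of these rows in replicate 1 were AT2G01021, an uncharacterized protein gene of 102 bases, all with a near-identical copy elsewhere, at 23010, 26533, 23733 and 26083 FPKM, and AT3G08520, a ribosomal protein L41 family gene of 246 bases at 5245, 4123, 4566 and 5203 FPKM. The next 3 were snoRNA genes, which encode guides for the modification of ribosomal RNA. AT1G74456 stood at 1842, 1392, 1649 and 1751 FPKM, AT3G47348 at 1523, 715, 898 and 1146 FPKM and AT2G35744 at 887, 786, 1037 and 762 FPKM. The sequences of AT1G74456 and AT3G47348, 82 and 85 bases in TAIR10, are shown to give the size of the transcripts concerned, with capitals at the letters TGATGA and CTGA, those of the C and D boxes of one snoRNA class.
AT1G74456 (chr1:27984745-27984826, minus strand): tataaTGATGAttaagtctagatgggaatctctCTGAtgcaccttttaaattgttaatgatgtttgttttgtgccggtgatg
AT3G47348 (chr3:17445963-17446047, plus strand): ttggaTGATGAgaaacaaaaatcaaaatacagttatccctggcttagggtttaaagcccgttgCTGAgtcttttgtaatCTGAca
These 2 were chosen after their values were seen, and a match of the box letters is a description only.

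The 1 row of the reverse kind was LHCB1.3, one of the abundant antenna genes of photosystem II. It was listed at 0 in the 4 replicate 1 libraries and at 15416 to 16453 FPKM in the others. LHCB1.1, LHCB1.2 and LHCB1.3 lie side by side on chromosome 1 (10472280 to 10479114 in TAIR10.1). LHCB1.1 was at 3767 to 4426 FPKM in replicate 1 and 6941 to 7836 FPKM in the others, and LHCB1.2 at 5833 to 7441 and 6651 to 7493 FPKM. The 3 neighbours summed to 9600 to 11716 FPKM in replicate 1 and 29008 to 31528 FPKM in the others. Of the 2 further members on chromosome 2, LHCB1.4 was at 3784 to 4869 FPKM in replicate 1 and 1139 to 1303 FPKM in the others, and LHCB1.5 at 11683 to 13828 and 8122 to 8795 FPKM. All 5 summed to 25150 to 30413 FPKM in replicate 1 and 38501 to 41362 FPKM in the others. None of the 5 transcripts had an alignment of 100 bases or more to another locus with 98% identity over its whole length. A less alike alignment was dropped even where a part of it was closer, so shared stretches were not excluded. With no minimum on the level, ERF14 was the other row at 0 in replicate 1 only, at 0.258 to 1.25 FPKM in the others.

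The metallothionein gene MT1A, which encodes a small metal-binding protein, showed unstable values without being at 0. MT1A stood at 10203, 9801, 12113 and 11109 FPKM in WT, brat1, nrpe1 and brat1nrpe1 of replicate 1. In replicate 2 it was at 0.010, 1.25, 0.171 and 0.485 FPKM, and in replicate 3 at 290, 0.0514, 878 and 0.00811 FPKM. Replicates 2 and 3 of WT thus differed far more for MT1A than for the clock genes. The annotated MT1A transcript has 138 bases, all of which overlap another gene model, AT1G07590. AT1G07590 stood at 233 to 291 FPKM in replicate 1 and 458 to 546 FPKM in the others. MT1C, a metallothionein gene next to MT1A, was at 70.9 to 114 FPKM in replicate 1 and 502 to 832 FPKM in the others, a difference of -2.92. Its values in replicates 2 and 3 of each genotype were close.

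Genes with near-identical copies were called in both directions. The following counts include rows that passed the filter through 1 set alone. Of 206 tested genes with a copy at 98% identity over at least 50% of the transcript, 31.6% were higher and 20.4% lower, against 6.90% and 5.20% of the 21563 genes with none. Copies in the organelle genomes were counted, so the 206 include the 67 tested organelle-like rows described next. Those rows gave 55 of the 65 higher calls and 0 of the 42 lower calls, so the higher share rests mostly on them. Most tested members of a set of nuclear genes alike in sequence to organelle DNA were higher. This set was chosen after its values were seen. It held 109 nuclear rows of which at least 50% of the transcript matched the mitochondrial or chloroplast genome at 98% identity, and 106 of them lie on chromosome 2, where a large insertion of mitochondrial DNA is known. Of 67 tested, 55 were higher, 0 lower and 12 not called, with AT2G07741 at -0.64, and 19 more were at 0 in replicates 2 and 3 only. Some of the 67 passed the filter through replicate 1 alone and could only be higher. Of the 52 with a mean FPKM of at least 0.1 in both sets, 42 were higher and 0 lower. The rows summed to 412, 506, 500 and 468 FPKM in replicate 1 and to 31.7 to 54.8 FPKM in the others. AT2G07739 (chromosome 2, 3495511 to 3496398) was the highest, at 142 to 219 FPKM in replicate 1 and 1.41 to 3.73 FPKM in the others. All 279 rows of the organelle genomes were at 0 in every library, so the level of the organelle transcripts themselves was not measured here.

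Some copper-response genes differed between the replicate numbers in one direction in WT and brat1 and in the other direction in nrpe1 and brat1nrpe1. Among the called genes the range over the 4 genotypes had a median of 0.52 on the log2 scale and was over 2 in 202. When copper is scarce, the factor SPL7 raises uptake genes such as COPT2, YSL2 and FRO4 and the microRNAs miR398 and miR408. These microRNAs lower the copper/zinc superoxide dismutases CSD1 and CSD2 with their chaperone CCS, and the copper protein plantacyanin (ARPN). This pattern was found by ranking all tested genes on the gap between the mean difference of WT and brat1 and that of nrpe1 and brat1nrpe1. The list of 31 copper-related genes was written after that ranking, and the genes described one by one were picked from it by their values, so the counts are a description and support nothing. Of the 31, 27 were tested, and 2 of the other 4 microRNA precursors were at 0 in every library. The gap was over 1 in 13 of the 27 and within 1 in 14, with a median of 0.94, against 2.62% of all genes tested and a median of 0.12. The signs were opposite in the genotype pairs in 8 of the 27 and in 3.81% of all genes tested. Genes within 1 included the plastocyanin genes PETE1 and DRT112 (0.18 and 0.09), the iron superoxide dismutase genes FSD2 and FSD3 (0.03 and 0.08) and the laccase genes LAC12, LAC13 and IRX12 (-0.18, 0.00 and 0.41).

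CSD2 stood at 218 and 163 FPKM in WT and brat1 of replicate 1 and at 58.6 and 50.2 FPKM in nrpe1 and brat1nrpe1. In replicates 2 and 3 the order was the reverse, with 61.0 to 89.6 FPKM in WT and brat1 and 210 to 231 FPKM in nrpe1 and brat1nrpe1. The differences between the replicate numbers were 1.81 and 0.92 in WT and brat1 and -1.96 and -2.06 in the other two. CSD1 stood at 119 and 99.5 FPKM against 39.8 and 33.3 FPKM in replicate 1, and at 58.8 to 77.8 against 183 to 192 FPKM in replicates 2 and 3. CCS and ARPN had the same order of the genotypes in each set. CCS was at 33.2 and 25.3 against 16.8 and 13.8 FPKM in replicate 1 and at 21.8 to 27.6 against 44.8 to 54.8 FPKM in the others. ARPN was at 10.6 and 10.7 against 4.22 and 4.75 FPKM, and then at 6.97 to 10 against 15.8 to 20.3 FPKM.

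The uptake genes COPT2 and YSL2 went the other way. Other transporter genes of the list did not turn. COPT1, COPT6 and ZIP2 differed by above 0 in all 4 genotypes, with gaps of -0.34, -0.05 and -0.94. COPT2, a copper transporter, stood at 7.44 and 7.46 FPKM in WT and brat1 of replicate 1 and at 19.6 and 18.5 FPKM in nrpe1 and brat1nrpe1. In replicates 2 and 3 it was at 11.9 to 17.1 FPKM in WT and brat1 and at 4.33 to 5.71 FPKM in the other two. YSL2, a metal-nicotianamine transporter, was at 10.3 and 10.4 against 15.1 and 16.1 FPKM in replicate 1, and at 20.3 to 23.4 against 10.2 to 11.3 FPKM in the others. AT1G71200, a bHLH factor, was at 1.01 and 0.553 against 2.79 and 3.02 FPKM, and then at 1.74 to 2.52 against 0.240 to 0.720 FPKM. The MIR408 precursor was at 0.255 and 0.555 against 1.44 and 1.19 FPKM, and then at 1.84 to 2.21 against 0.409 to 1.21 FPKM, and its transcript overlaps another gene model over its whole length. FRO4, a metal reductase, differed in one direction in all genotypes, by 1.33 in WT, 1.32 in brat1, 3.22 in nrpe1 and 3.48 in brat1nrpe1, and was called higher (2.34, limma adjusted p = 0.0028). SPL7 itself stood at 14.9 to 16.2 FPKM in replicate 1 and 16.0 to 17.5 FPKM in the others. The MIR398c precursor was also called higher (1.19, limma adjusted p = 0.031). The order of the genotypes for CSD1, CSD2, COPT2, YSL2 and AT1G71200 thus turned between replicate 1 and replicates 2 and 3, with no overlap between the genotype pairs in either. With 1 library of each genotype in replicate 1, these turns were not tested.

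**Figure D5:**
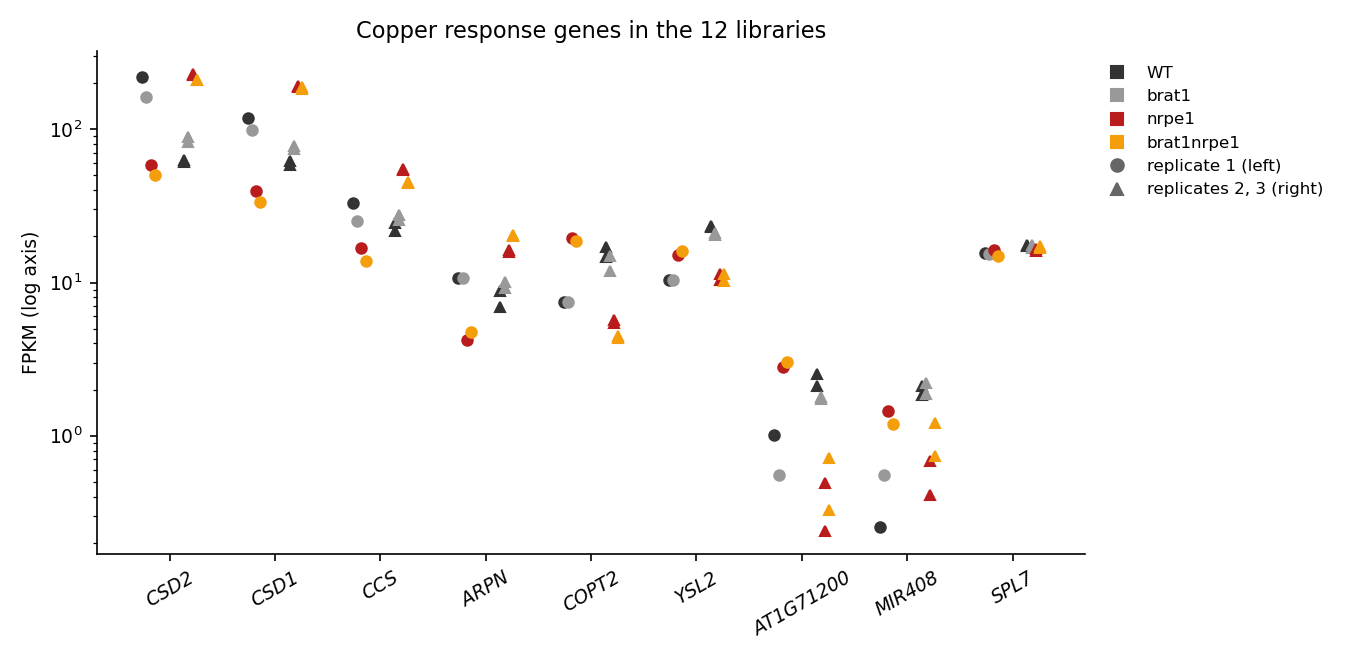
FPKM (log axis) of 8 copper-response genes and of SPL7 in each of the 12 libraries, coloured by genotype, with circles (left) for replicate 1 and triangles (right) for replicates 2 and 3. For CSD2, CSD1, CCS and ARPN the nrpe1 and brat1nrpe1 libraries lie below WT and brat1 in replicate 1 and above them in replicates 2 and 3, and for COPT2, YSL2, AT1G71200 and MIR408 the order is the reverse.

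Over all genes, the differences between a mutant and WT were compared between the 2 sets, which share no library. Of the tested genes, 19279 had a mean FPKM of at least 1. Among them nrpe1 differed from WT by over 1 in 259 genes in replicate 1 and in 277 genes in replicates 2 and 3. Of these, 75 had the same sign in both, 29.0% of the one list and 27.1% of the other, and 24 had opposite signs. For brat1 the counts were 156 and 204, with 50 of the same sign (32.1% and 24.5%) and 5 opposite. For brat1nrpe1 they were 283 and 320, with 105 of the same sign (37.1% and 32.8%) and 14 opposite. Replicate 1 gives 1 library of each genotype, so no test was made. The other set gives the mean of replicates 2 and 3, and the overlap expected without a shared effect was not computed.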

How the data were processed

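Total RNA was extracted from seedlings with Trizol, poly(A) RNA was purified from it, and libraries were made with the NEBNext Ultra kit and sequenced on an Illumina HiSeq. Use of strand in counting is not given in the sources used here, so overlapping and antisense genes cannot be told apart. The authors aligned reads to TAIR10 and kept unique reads, and the submitters' processing notes name TopHat2 2.0.12, Bowtie, Cuffdiff and Cufflinks 2.0.1. The deposited table holds FPKM values per gene as the authors' Cufflinks run gave them, with no counts, and depth was read here from the table as a ratio between libraries. The read totals that the study lists per library were not used here.

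Here log2(FPKM + 0.1) was fitted with limma 3.58.1 (R 4.3.3, moderated with a trend) on the 4 genotype differences, replicate 1 minus the mean of replicates 2 and 3, with Benjamini-Hochberg adjustment over 22237 genes. Fold changes on this scale understate the change of low genes. Rows at 0 in a whole set were left out and listed apart. Replicate 2 against replicate 3 was fitted in the same way. Fits were tested on simulated data. Positions, transcript lengths, gene types and promoters came from RefSeq TAIR10.1, which matched 33389 of 34133 rows, and near-identical copies (98% identity over 100 bases or more) from BLAST 2.17.0.

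The members and lists were chosen with earlier results of these data known. Named genes were the 10 that differed most in each direction with a mean FPKM of at least 1, no 0 in any library and replicate 1 on one side of both others in each genotype, the 2 called genes that differed most in each list, the core clock genes, BRAT1 and NRPE1, and up to 5 of the highest rows at 0 in a whole set. Other members of the lists, and families such as LHCB1, were named after their values were seen. The copper list, the copper genes described singly, the organelle-like set, the printed sequences and the bins of the motif plot were chosen after values were seen. Lists from process terms were planned and were not made, because the annotation used here carries no such terms. Alternatives tried were other pseudocounts, filters, thresholds, scalings and fits, a replicate block, and leaving out each replicate number or genotype. 1 promoter sequence is not reported here.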

Additional observations from a re-analysis of the deposited data

Results flagged for a closer look

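Among the 67 genes named, 134 checks for a library far from the others gave 3 flags, and chance flags about 1 in 20. AT1G65490 in brat1 of replicate 1 was at 2.90 FPKM, while the other 3 replicate 1 libraries were at 4.0 to 4.04. FKF1 in brat1 of replicate 2 was at 0 FPKM, while the other 7 libraries of replicates 2 and 3 were at 0.0721 to 0.156. HSP17.6C in brat1 of replicate 1 was at 0.283 FPKM, against 0.0544 to 0.0606 in the other 3.

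In 10 named genes replicate 1 lay above both other libraries of at least 1 genotype and below both of another, and these contrasts between genotypes were not tested. For the copper-response genes the log2 differences were 0.98 in WT and -2.25 in nrpe1 (CSD1), 1.81 and -1.96 (CSD2) and 0.43 and -1.90 (ARPN). They were -1.08 in WT and 1.80 in nrpe1 for COPT2, -1.16 and 0.47 for YSL2, -1.12 and 2.69 for AT1G71200, and -2.55 and 1.29 for MIR408. CCS differed by 0.52 in WT and -0.07 in brat1. These 8 genes were picked after their values were seen, most of them for this pattern. CBP60G, a regulator of salicylic acid synthesis, differed by 1.70 in WT and -0.05 in nrpe1. BRAT1 differed by 0.17 in brat1 and -0.03 in WT.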

How the results depend on the processing

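The counts of 1581 higher and 1213 lower genes became 7465 and 7153 with no limit on the size of the difference, and the higher count fell to 1007 with a pseudocount of 1. Leaving out 1 genotype gave 1530 to 1642 higher and 1199 to 1270 lower genes, and leaving out replicate 2 or replicate 3 gave 1547 and 1567 higher and 1247 and 1233 lower. When the 12 libraries were fitted together with a replicate block, 1569 genes were higher and 1218 lower. In that fit replicate 1 against the others is itself the block term, so it is the same comparison with another estimate of the spread. Replicate 2 against replicate 3, with 0 calls, gave 17 higher and 26 lower at an unadjusted p under 0.01 and a difference over 1, 1 higher with a pseudocount of 1, and 0 to 2 higher and 0 to 1 lower when 1 genotype was left out. With no minimum on the level, 2 rows were at 0 throughout replicate 1 and 225 throughout replicates 2 and 3 while above 0 in every other library, in place of 1 and 136. Without the demand on the other libraries these were 656 and 1423. Over genes whose mean was 0.1 FPKM or more in both sets, a choice made after seeing the data, 1476 were higher and 1172 lower of 21870. No named gene reversed, and 6 of 67 changed their call in at least 1 setting (CBP60G, HSP17.6C, NIMIN1, OLEO1, SPX3 and CCS). Counts for the gene lists moved by over 1.5 times in 61 cases and stayed within it in 767. Relative depth was higher in replicate 1, and its part in the values of low and short rows was not tested.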
